A study of Mus musculus with 4 samples.

Results

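The 9 genes of lipoprotein handling described here were measured in 4 single-cell libraries of mouse arteries: *Apoe*, *Lrp1*, *Vldlr*, *Scarb1*, *Cd36*, *Abca1*, *Abcg1*, *Lpl* and *Pltp*. They were taken by name as a list of lipoprotein uptake and cholesterol efflux genes, 9 of the 34469 genes listed in the deposited tables, and all 9 were listed in each of the 4 libraries. The study asked how telomere damage and senescence of vascular smooth muscle cells (VSMCs) alter their state in plaques and after injury. Plaque cells came from the aortic root and arch and the carotid arteries of *ApoE*-/- mice after 14 weeks of high fat diet, in 1 library from *Myh11-CreERt2/Confetti/ApoE*-/- mice (called ApoE-/- here) and 1 from mice that also carried *Sm22a-Trf2T188A* (called Trf2T188A/ApoE-/- here). Ligated vessels were left common carotid arteries taken 28 days after ligation, in 1 library from wild type control mice and 1 from *SM22a-TRF2T188A* mice. The transgene expresses a TRF2 mutant from a minimal *Sm22a* promoter active in arterial VSMCs. Both plaque genotypes lacked functional *ApoE* and carried the Confetti reporter, which tamoxifen given from 6 weeks of age switches on in *Myh11*-expressing cells, so that VSMC progeny could be recognised, and only male plaque mice carry that Cre. Ligated mice were adult C57Bl6/J males with a wild-type *Apoe* gene, and the adventitia of their arteries was removed. The labels of the ligated libraries name no reporter, while the paper counted Confetti-positive cells in ligated arteries by microscopy. How many mice were pooled into each library is not given in the sources used here. With 1 library per group no test across samples was possible, and each interval below is a 95% interval that covers counting error only and not the variation between mice.

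Apolipoprotein E is the ligand by which remnant lipoproteins bind cell surface receptors, among them LRP1 and the VLDL receptor. SR-BI (*Scarb1*) exchanges cholesterol with high density lipoprotein, and CD36 binds oxidised lipoproteins and fatty acids. ABCA1 and ABCG1 export cholesterol from loaded cells to apolipoprotein acceptors and high density lipoprotein, lipoprotein lipase (*Lpl*) releases fatty acids from triglyceride, and the phospholipid transfer protein (*Pltp*) moves phospholipid between lipoproteins. *Abca1*, *Abcg1*, *Apoe*, *Lpl* and *Pltp* are textbook targets of the sterol-sensing liver X receptors.

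Promoter windows are shown for 4 genes that differed together, or in the opposite direction, between cell states. Windows of RefSeq (GRCm38.p6), from 250 bases before to 50 after a transcript start, were matched for 6 of the 9 genes. Capitals mark the motifs found among those searched on both strands, which were CACGTG (an E-box), GGTNA followed after 5 letters by GGTCA (a form of the liver X receptor repeat) and the CArG box of serum response factor. The sequences run 5′ to 3′ on the strand of the gene.
*Abca1*, chr4:53159846-53160145, minus strand: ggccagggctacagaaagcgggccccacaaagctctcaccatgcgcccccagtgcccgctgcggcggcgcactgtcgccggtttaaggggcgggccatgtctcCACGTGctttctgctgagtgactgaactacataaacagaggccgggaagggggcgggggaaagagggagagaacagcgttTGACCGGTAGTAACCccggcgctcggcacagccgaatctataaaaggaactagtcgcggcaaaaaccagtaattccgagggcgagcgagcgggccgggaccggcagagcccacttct
*Apoe*, chr7:19699139-19699438, minus strand: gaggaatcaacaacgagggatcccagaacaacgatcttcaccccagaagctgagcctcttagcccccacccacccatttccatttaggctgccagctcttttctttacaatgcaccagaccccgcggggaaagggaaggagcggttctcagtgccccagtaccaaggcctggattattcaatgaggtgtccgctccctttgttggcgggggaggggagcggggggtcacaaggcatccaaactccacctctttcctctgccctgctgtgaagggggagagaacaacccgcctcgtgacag
*Pltp*, chr2:164857659-164857958, minus strand: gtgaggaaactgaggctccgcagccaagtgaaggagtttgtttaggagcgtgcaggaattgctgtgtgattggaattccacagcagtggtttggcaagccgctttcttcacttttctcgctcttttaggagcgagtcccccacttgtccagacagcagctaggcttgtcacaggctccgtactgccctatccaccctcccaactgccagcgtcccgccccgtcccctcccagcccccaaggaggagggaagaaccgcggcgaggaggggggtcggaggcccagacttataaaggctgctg
*Vldlr*, chr19:27216234-27216533, plus strand: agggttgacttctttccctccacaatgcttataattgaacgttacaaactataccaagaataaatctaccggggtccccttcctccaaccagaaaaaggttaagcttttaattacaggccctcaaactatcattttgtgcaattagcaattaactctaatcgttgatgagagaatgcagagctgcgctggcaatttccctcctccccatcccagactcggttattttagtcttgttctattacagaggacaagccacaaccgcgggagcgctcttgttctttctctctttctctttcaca
In the *Abca1* window the first run of capitals is the E-box and the second is the repeat, read on the other strand. Among all 32851 windows 0.207% held the repeat, 7.15% the E-box and 1.63% the CArG box, and no other window of these 9 genes held any of them. A match is a description of letters, and the absence of one in this window says nothing of binding.

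The genes lie on 8 chromosomes of GRCm38. *Abca1* spans 129 kb (chromosome 4, 53030787 to 53159895), *Cd36* 107 kb (chromosome 5, 17781690 to 17888801), *Lrp1* 83.0 kb (chromosome 10, 127538161 to 127621148), *Scarb1* 64.0 kb (chromosome 5, 125277087 to 125341094) and *Abcg1* 60.3 kb (chromosome 17, 31057675 to 31117988). *Vldlr* spans 37.7 kb (chromosome 19, 27216484 to 27254231), *Lpl* 27.0 kb (chromosome 8, 68880491 to 68907448), *Pltp* 18.2 kb (chromosome 2, 164839518 to 164857711) and *Apoe* 3.08 kb (chromosome 7, 19696109 to 19699188). *Pltp* overlaps *Ctsa* and *Lrp1* overlaps the antisense gene *Gm16217*, both on the opposite strand. *Scarb1* overlaps *Gm42633* and *Abcg1* overlaps *Gm25447*, both on the same strand. Whether counting used strand or intronic reads is not given in the sources used here.

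The values were unique molecular identifiers (UMIs), each a captured RNA molecule counted once, per 10000 UMIs. The ApoE-/- library held 1502 cells with a median of 22765.5 UMIs, the Trf2T188A/ApoE-/- library 929 cells with 24377, the ligated control library 4967 cells with 8631 and the ligated Trf2T188A library 5392 cells with 11153. Cells were clustered without the genes described here among the variable genes, and the clusters were gathered into classes named by their leading genes or, where fixed markers allowed, by type. Contractile cells numbered 764 and 350 in plaques and 1654 and 2349 in ligated arteries. Plaque fibromyocyte-like cells, named from markers such as *Timp1*, *Thbs1* and *Tnfrsf11b*, numbered 164 and 135, C3/Lcn2 cells 108 and 75 and chondrocyte-like cells 81 and 63. The ligated arteries held 2043 and 1901 Igfbp2/Postn cells, 1081 and 963 Gdf10/Lum cells, 62 and 65 endothelial-like cells and 19 and 58 myeloid-like cells. The remaining plaque classes were led by *Itih4* and *Wnt16*, *Adamtsl1* and *Mdga2*, *Pln* and *Notch3*, or very long genes, and 34 and 1 fibroblast-like cells are not described further and are left out of every range and order of plaque classes below. The 10 contractile markers summed to 468 and 485 per 10000 in plaque and 426 and 448 in ligated contractile cells, but to 499 and 502 in Igfbp2/Postn cells, so that class was not short of contractile transcripts. They summed to 75.4 and 60.1 in fibromyocyte-like, 76.3 and 91.3 in C3/Lcn2, 7.92 and 4.02 in chondrocyte-like and 218 and 198 in Gdf10/Lum cells. The ligated libraries shared 10 cell barcodes and the plaque libraries 0. In each pair of values below the library without the transgene comes first.

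**Figure D1:**
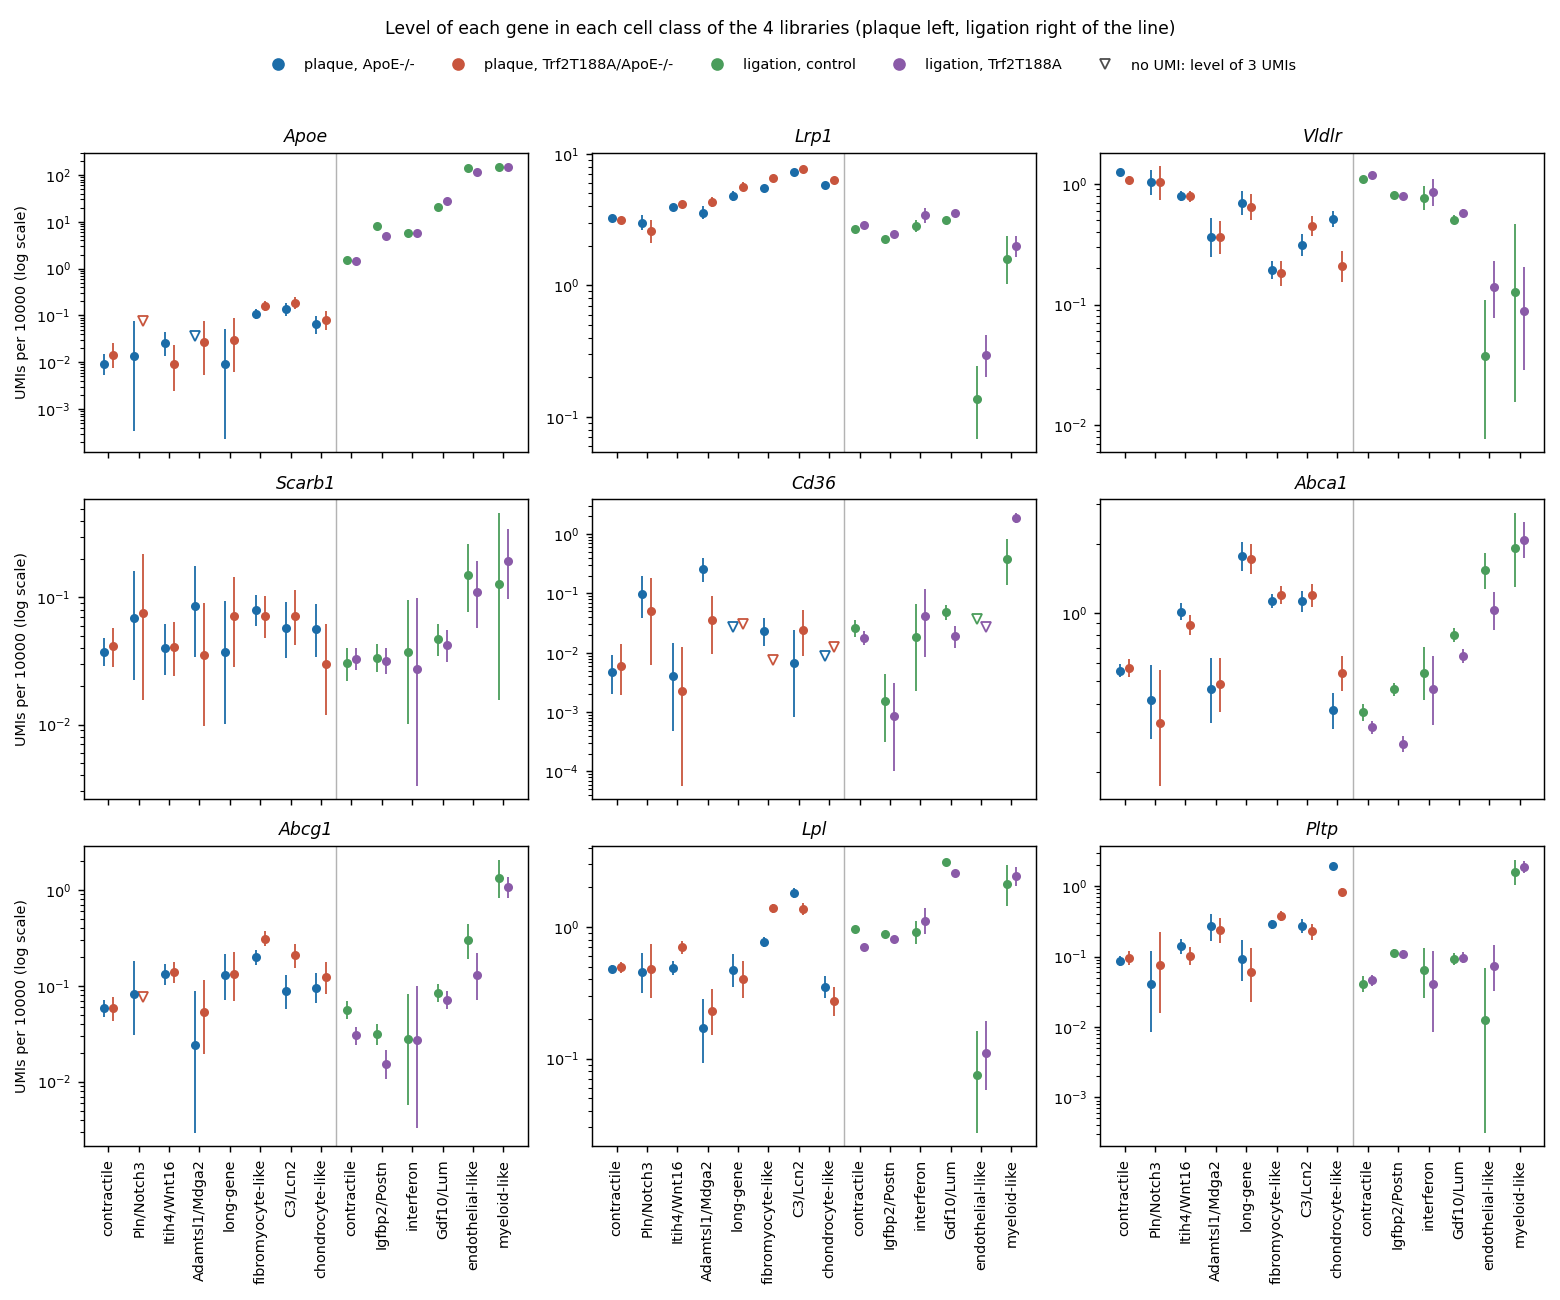
Level of each gene in UMIs per 10000 (vertical axis, log scale, a separate range for each gene) in each cell class (horizontal axis), plaque classes left and ligation classes right of the grey line. Points are the 4 libraries and bars are exact Poisson 95% intervals. Open triangles mark classes with no UMI, drawn at the level 3 UMIs would have. *Apoe* lies below 0.2 in every plaque class and above 1 in every ligation class, while *Vldlr* is highest in contractile cells among the classes drawn in all 4 libraries. Fibroblast-like cells are not drawn.

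*Apoe*, the targeted gene of the plaque mice, was nearly absent from plaque cells. It gave 172 UMIs among all ApoE-/- cells, a level of 0.0454 per 10000, and 152 UMIs in Trf2T188A/ApoE-/- cells, a level of 0.0632. Ligated cells, with the wild-type gene, had 11.4 in control and 10.6 in Trf2T188A. Which part of *Apoe* the mutant allele lacks, and so whether its 3′ end can still be counted, is not given in the sources used here. The remaining plaque UMIs were not spread evenly over the classes. Contractile cells held 16 UMIs in 764 ApoE-/- cells and 12 in 350 Trf2T188A/ApoE-/- cells, levels of 0.00938 and 0.0146. Fibromyocyte-like cells held 70 and 65 UMIs, levels of 0.11 (95% interval, 0.0855 to 0.139) and 0.161 (0.124 to 0.205). The C3/Lcn2 cells were at 0.135 and 0.183 and chondrocyte-like cells at 0.0656 and 0.0808, with 17 of the 40 UMIs of ApoE-/- C3/Lcn2 cells in 1 cell. Intervals of C3/Lcn2 and fibromyocyte-like cells overlapped, and both lay above those of contractile cells in both libraries. A UMI was found in 23.2% of ApoE-/- fibromyocyte-like cells (exact Clopper-Pearson interval, 16.9 to 30.4%) against 1.96% of contractile cells (1.10 to 3.22%). The fibromyocyte-like cells were deeper, with a median of 34986.5 UMIs against 21665.5, and after thinning of every cell to 8000 UMIs the shares were 8.81% and 0.672%.

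In ligated arteries, where *Apoe* is intact, its level in control cells ran from 1.52 in contractile cells (95% interval, 1.46 to 1.58) through 5.65 in interferon-responding, 8.06 in Igfbp2/Postn and 21.2 in Gdf10/Lum cells to 138 in endothelial-like and 145 in myeloid-like cells. The Trf2T188A library gave 1.43, 5.82, 4.94, 28.5, 113 and 151 in the same classes. Contractile cells were lowest and endothelial-like and myeloid-like cells highest in both libraries. The intervals of endothelial-like and myeloid-like cells overlapped in control (136 to 141 and 139 to 151) and lay apart in Trf2T188A (111 to 115 and 148 to 154). Of all control *Apoe* UMIs, 40.7% lay in Gdf10/Lum cells, which were 21.8% of the cells, 20.4% in endothelial-like cells, which were 1.25%, and 4.34% in contractile cells, which were 33.3%. In Trf2T188A the shares of UMIs were 48.2%, 17.1% and 5.85%.

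Free RNA of the richest cells can enter other droplets, so *Apoe* was set beside genes that only those cells should make. In contractile cells the 11 myeloid markers stood at a median of 0.00455% of their myeloid-like level in control and 0.00868% in Trf2T188A, with a highest value of 0.158%, whereas *Apoe* stood at 1.05% and 0.944% of its myeloid-like level. The 10 endothelial markers stood at medians of 0.027% and 0.0878% of their endothelial-like level, with highest values of 1.2% and 1.68%, against 1.1% and 1.26% for *Apoe*. The *Apoe* of contractile cells was thus above every myeloid marker and within the range of the endothelial ones. Of control *Apoe* UMIs, however, 40.7% lay in Gdf10/Lum and 29.2% in Igfbp2/Postn cells, against 4.18% in myeloid-like and 20.4% in endothelial-like cells. The markers follow only the last 2 of these sources, so carry-over of *Apoe* RNA into contractile cells was not tested. In Gdf10/Lum cells *Apoe* reached 15.3% and 25.2% of its endothelial-like level, above the highest endothelial marker at 0.992%. A UMI was seen in 41.7% of control contractile cells (39.3 to 44.1%) and 79.8% of Gdf10/Lum cells (77.3 to 82.2%), and in 29.8% and 71.7% after thinning to 5000 UMIs, with median depths of 8509 and 8548. No class lacked *Apoe*, so no class gave its background directly.

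*Lrp1*, an endocytic receptor for apolipoprotein E remnants and many other ligands, was found in every plaque class. Contractile plaque cells had 3.23 UMIs per 10000 in ApoE-/- (95% interval, 3.14 to 3.31) and 3.12 in Trf2T188A/ApoE-/- (3.0 to 3.24). Fibromyocyte-like cells had 5.53 and 6.57, chondrocyte-like cells 5.80 and 6.29 and C3/Lcn2 cells 7.26 and 7.71. In both libraries C3/Lcn2 cells were the highest class and their intervals lay above those of the other classes described, while fibromyocyte-like and chondrocyte-like cells overlapped each other. In ligated arteries the span among VSMC classes was narrower, from 2.25 and 2.45 in Igfbp2/Postn cells to 3.17 and 3.56 in Gdf10/Lum cells, with contractile cells at 2.69 and 2.87. Endothelial-like cells were lowest, at 0.137 and 0.296, and a UMI was found in 8.06% of the control ones against 85.0% of contractile cells.

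*Vldlr*, the VLDL receptor, was instead lower in fibromyocyte-like, C3/Lcn2, chondrocyte-like and Gdf10/Lum cells than in contractile cells. Among the classes described it was highest in contractile cells of all 4 libraries, at 1.25 and 1.08 in plaques and 1.09 and 1.20 in ligated arteries. Fibromyocyte-like cells were the lowest plaque class, at 0.194 (95% interval, 0.162 to 0.232) and 0.183 (0.144 to 0.230). C3/Lcn2 cells had 0.311 and 0.447, and chondrocyte-like cells 0.51 and 0.208. In Trf2T188A/ApoE-/- the chondrocyte-like and fibromyocyte-like intervals overlapped. The plaque Pln/Notch3 cells had 1.03 and 1.03, with intervals that overlapped those of contractile cells. Among ligated VSMCs the Gdf10/Lum cells were lowest, at 0.505 and 0.572, below Igfbp2/Postn cells at 0.809 and 0.802. Endothelial-like cells held 3 and 15 UMIs and myeloid-like cells 2 and 5, which is little for an order among them.

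*Scarb1*, which encodes SR-BI, was sparse in every class. In the plaque classes described its levels ran from 0.0369 to 0.0852 in ApoE-/- and from 0.0298 to 0.0757 in Trf2T188A/ApoE-/-. Contractile cells had 0.0375 (95% interval, 0.0289 to 0.0479) and fibromyocyte-like cells 0.0799 (0.0595 to 0.105) in ApoE-/-, which did not overlap, while the Trf2T188A/ApoE-/- values of 0.0413 and 0.0717 had overlapping intervals. In ligated arteries endothelial-like cells had 0.15 and 0.111, myeloid-like cells 0.128 and 0.193, with overlapping intervals, and the other classes between 0.0273 and 0.0469.

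*Cd36*, the fatty acid and oxidised lipoprotein receptor, had its highest level in the myeloid-like cells of ligated arteries, though these held few of its UMIs in control. Myeloid-like cells of ligated arteries had 0.383 in control (6 UMIs in 3 of 19 cells) and 1.88 in Trf2T188A (107 UMIs in 26 of 58 cells). Contractile ligated cells had 0.0257 and 0.018, and no UMI was found in the 62 and 65 endothelial-like cells. The bound of 3 UMIs used for such classes would be 4.84% and 4.62% of those cells. It is not a Clopper-Pearson limit and sets no limit on cells that express the gene. Of the *Cd36* UMIs 5.94% in control and 56.9% in Trf2T188A lay in myeloid-like cells, against 39.6% and 28.2% in contractile cells. In plaques contractile cells held 8 and 5 UMIs. In ApoE-/- all 15 UMIs of fibromyocyte-like cells and all 7 of Pln/Notch3 cells lay in 1 cell each. Adamtsl1/Mdga2 cells had a UMI in 5 ApoE-/- cells (12.2%), with 17 of 21 UMIs in 1 of them, and 4 UMIs in 4 Trf2T188A/ApoE-/- cells (10.0%), against 0.916% and 1.43% of contractile cells. In control Gdf10/Lum cells 18 of 50 UMIs lay in 1 cell.

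*Abca1*, the exporter that lipidates apolipoprotein A-I and whose promoter window above held the receptor repeat, was higher in fibromyocyte-like and C3/Lcn2 than in contractile plaque cells. Contractile cells had 0.557 and 0.575, fibromyocyte-like cells 1.12 and 1.20, C3/Lcn2 cells 1.12 and 1.20 and Itih4/Wnt16 cells 1.01 and 0.882. The fibromyocyte-like and C3/Lcn2 intervals overlapped, and both lay above contractile cells in both libraries. The long-gene class was highest of all, at 1.77 (95% interval, 1.53 to 2.04) and 1.72 (1.47 to 2.0). That class was named from a list with very long genes such as *Dmd* and was shallow, with medians of 9881.5 and 7386 UMIs. *Abca1* is the longest of the 9 genes, while *Cd36*, the next longest at 107 kb, had no UMI in that class in either library. The part of gene length in these levels was not tested. Chondrocyte-like cells did not share the higher level and had 0.373 and 0.545. In ligated arteries *Abca1* was 0.365 and 0.315 in contractile and 0.463 and 0.266 in Igfbp2/Postn cells, so that the lowest class differed between the libraries, and ran through 0.799 and 0.647 in Gdf10/Lum cells to 1.53 and 1.03 in endothelial-like and 1.92 and 2.09 in myeloid-like cells. The intervals of the last 2 classes overlapped in control only.

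*Abcg1*, which exports cholesterol to high density lipoprotein, followed a related order at fewer UMIs. Contractile plaque cells had 0.0586 (95% interval, 0.0477 to 0.0713) and 0.0583 (0.0430 to 0.0772), and fibromyocyte-like cells 0.198 (0.165 to 0.235) and 0.309 (0.257 to 0.368), the highest class in both libraries. The C3/Lcn2 cells differed between the libraries, at 0.0878 and 0.207. In ligated arteries myeloid-like cells had 1.34 and 1.07, endothelial-like cells 0.299 and 0.129, Gdf10/Lum cells 0.0842 and 0.0718, contractile cells 0.056 and 0.0303, and Igfbp2/Postn cells 0.0315 and 0.0153. Endothelial-like and Gdf10/Lum intervals overlapped in Trf2T188A. Myeloid-like cells were 1.08% of the Trf2T188A library and held 21.1% of its *Abcg1* UMIs.

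*Lpl*, the enzyme that cleaves lipoprotein triglyceride, was highest in the Gdf10/Lum cells of ligated arteries and the C3/Lcn2 and fibromyocyte-like cells of plaques. In ligated arteries Gdf10/Lum cells had 3.13 (95% interval, 3.02 to 3.24) and 2.58 (2.49 to 2.67) against 0.964 and 0.707 in contractile cells. Myeloid-like cells had 2.11 and 2.44. In plaques C3/Lcn2 cells had 1.81 and 1.38, fibromyocyte-like cells 0.773 and 1.38 and contractile cells 0.478 and 0.496. The order of C3/Lcn2 and fibromyocyte-like cells was therefore clear in ApoE-/- and absent in Trf2T188A/ApoE-/-, where their intervals overlapped. A UMI was found in 74.5% of control Gdf10/Lum cells (71.8 to 77.0%) and 4.84% of endothelial-like cells (1.01 to 13.5%), a class that takes up the enzyme from other cells rather than making it, with shares of 59.9% and 3.51% at 5000 UMIs.

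*Pltp*, which transfers phospholipid between lipoproteins, was led by chondrocyte-like cells in plaques, at 1.94 (95% interval, 1.79 to 2.09) in ApoE-/- and 0.825 (0.713 to 0.95) in Trf2T188A/ApoE-/-. In ApoE-/- 1 chondrocyte-like cell held 152 of the 650 UMIs. Fibromyocyte-like cells had 0.285 and 0.373 and contractile cells 0.0867 and 0.0947. In ligated arteries myeloid-like cells had 1.60 and 1.88 and the VSMC classes between 0.041 and 0.112, with Igfbp2/Postn cells at 0.112 and 0.11 above contractile cells at 0.0412 and 0.046. The overlap with *Ctsa*, a lysosomal gene on the other strand, applies to each of these values.

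**Figure D2:**
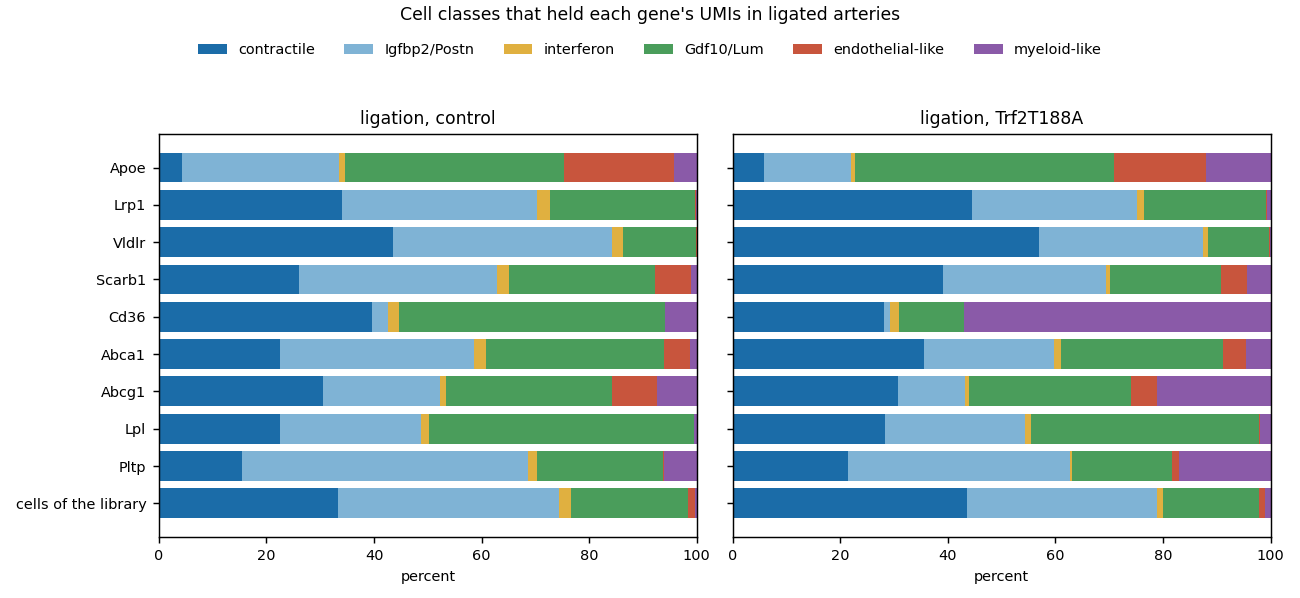
Share of the UMIs of each gene (percent, horizontal axis) that lay in each cell class of the ligated arteries, control left and Trf2T188A right, with the share of cells in the lowest bar of each panel. Endothelial-like cells were 1.25% of control cells and held 20.4% of the *Apoe* UMIs, and myeloid-like cells were 1.08% of Trf2T188A cells and held 56.9% of the *Cd36* UMIs.

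Cell states were then compared with contractile cells of the same library. A gene was counted when it had a UMI in at least 10% of the cells on either side and a log2 ratio of summed UMIs per 10000 of at least 0.5 in size. The classes were built from these same cells, so the ratios describe the classes and test nothing. In fibromyocyte-like cells, 8 of the 9 genes could be compared and all 8 were past that limit in each library, 7 higher and *Vldlr* lower, while *Cd36* did not have enough UMIs. Among all genes 42.8% of 11518 were past it in ApoE-/- (24.4% higher and 18.3% lower) and 43.6% of 11081 in Trf2T188A/ApoE-/- (22.6% higher and 21.0% lower). *Apoe* and *Scarb1* had UMIs in 10% of cells only on the side where they were higher, so their direction was set by the filter. The other 6 genes passed it on both sides, and of these 5 were higher and 1 lower in each library. *Apoe*, from the few transcripts named above, had the highest ratios of the 8, 3.55 (2.75 to 4.43) and 3.46 (2.56 to 4.49). *Abcg1* followed with 1.75 (1.36 to 2.15) and 2.41 (1.92 to 2.92) and *Pltp* with 1.72 and 1.98. *Abca1* had 1.01 and 1.06, *Lrp1* 0.78 and 1.08, *Scarb1* 1.09 and 0.80, and *Lpl* 0.69 and 1.48. *Vldlr* had −2.68 (−2.96 to −2.42) and −2.57 (−2.93 to −2.22). The direction was thus shared by both libraries for each of the 6 genes that passed the filter on both sides. With ratios taken from the mean over cells plus a pseudocount of 1, which shrinks the ratios of sparse genes, the counts were 3 and 4, against 3.25% of all genes higher and 3.23% lower in ApoE-/- and 3.38% and 3.77% in Trf2T188A/ApoE-/-.

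The C3/Lcn2 cells, which express complement and acute phase genes, gave the same count as fibromyocyte-like cells. All 8 genes compared were past the limit, 7 higher and *Vldlr* lower, in ApoE-/- (40.2% of 11187 genes, 23.6% higher and 16.6% lower) and in Trf2T188A/ApoE-/- (42.5% of 11480, 24.5% higher and 17.9% lower). Here too *Apoe* and *Scarb1* passed the filter only through the C3/Lcn2 cells, and of the other 6 genes 5 were higher and 1 lower. *Lpl* was 1.92 (1.76 to 2.08) and 1.48 (1.26 to 1.69), and *Lrp1* 1.17 and 1.31. *Vldlr* was −2.01 and −1.28. For *Scarb1* (0.61 and 0.80) and ApoE-/- *Abcg1* (0.58) the intervals included 0. With cells thinned to 8000 UMIs 5 genes were past the limit in ApoE-/-, since *Apoe*, *Scarb1* and *Abcg1* had UMIs in too few cells. With the pseudocount of 1 the counts were 3 and 2, against 3.51% of all genes higher and 2.88% lower and 3.52% and 2.63%.

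Chondrocyte-like cells needed a further step, since all genes compared had a median log2 ratio of −0.30 and −0.31, and ratios were read against that shift. Past the limit were 7 of 8 genes in ApoE-/- (61.8% of 11435 genes) and 6 of 7 in Trf2T188A/ApoE-/- (60.5% of 11157). *Pltp*, at 4.48 (4.22 to 4.75) and 3.12 (2.74 to 3.52), *Apoe*, at 2.81 and 2.47, *Lrp1*, at 0.85 and 1.01, and *Abcg1*, at 0.70 and 1.08, lay above 0 and above the shift, although *Apoe* passed the filter only through the chondrocyte-like cells. *Scarb1*, past the limit in ApoE-/- at 0.60 by the same route, was −0.47 in Trf2T188A/ApoE-/-, with UMIs in under 10% of cells, and both intervals included 0. *Vldlr* was −1.29 and −2.38, below the shift. *Abca1*, at −0.58 and −0.08, lay below the shift in one library and above it in the other, and its ApoE-/- value was 0.0035 with cells thinned to 1 depth. Its Trf2T188A/ApoE-/- interval included the shift. *Lpl* was −0.44 and −0.87, below the shift in both, though its ApoE-/- interval included the shift. With the pseudocount of 1 the counts were 3 and 3, against 4.4% of all genes higher and 7.28% lower and 4.73% and 6.77%.

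**Figure D3:**
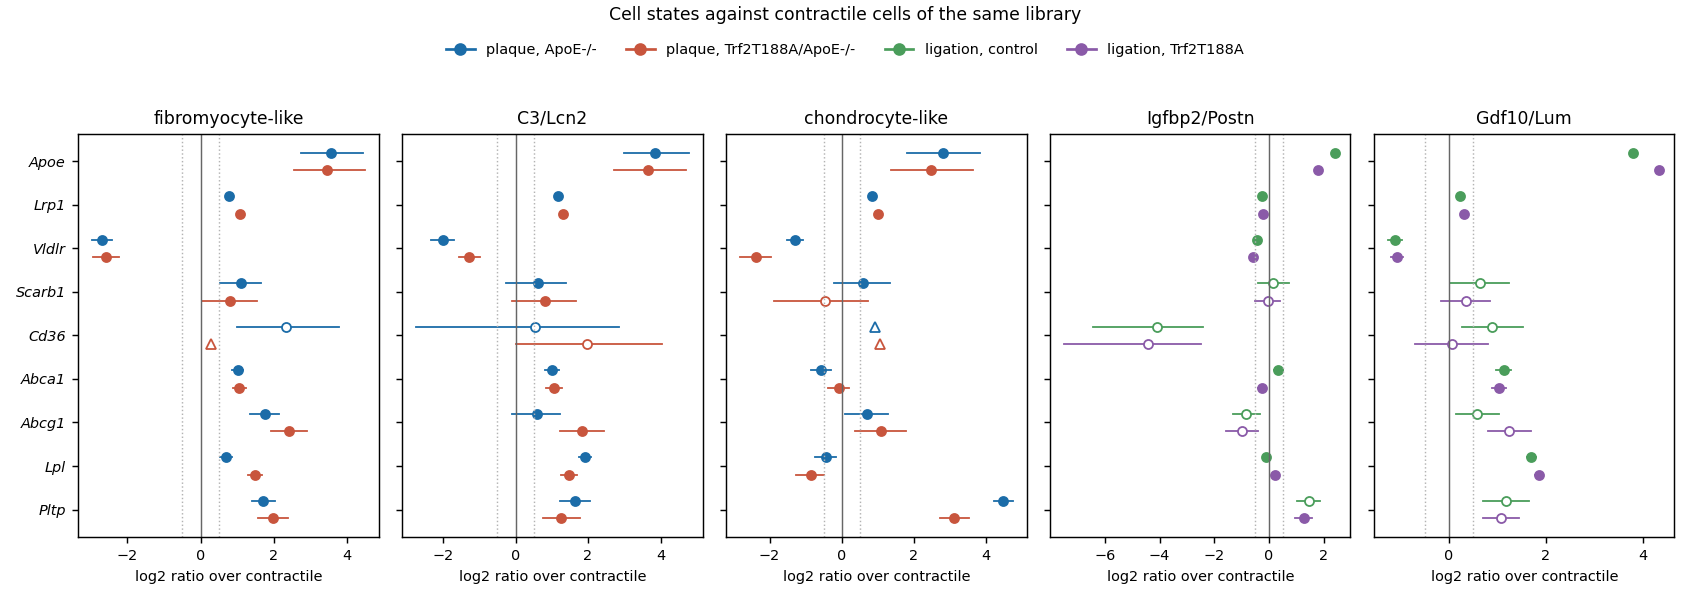
Log2 ratio of summed UMIs per 10000 over contractile cells of the same library (horizontal axis) for each gene in 3 plaque and 2 ligation classes. Bars are exact binomial 95% intervals, open circles mark genes with a UMI in fewer than 10% of cells on both sides, open triangles are upper bounds for classes with no UMI, and dotted lines mark 0.5 in size. *Vldlr* lies left of 0 and *Apoe* and *Pltp* lie right of 0 in all 5 panels.

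In ligated arteries the Gdf10/Lum cells had fewer genes with enough UMIs. Of 5 genes compared in control, 4 were past the limit, 3 higher and 1 lower, against 21.6% of 7918 genes (10.5% higher and 11.1% lower). The Trf2T188A library also had 4 of 5, 3 higher and 1 lower, against 23.3% of 8703 (10.9% higher and 12.4% lower). *Apoe* was 3.80 (3.74 to 3.86) and 4.32 (4.27 to 4.37), *Lpl* 1.70 and 1.86 and *Abca1* 1.13 (0.97 to 1.28) and 1.04 (0.90 to 1.18). *Vldlr* was −1.11 and −1.06, and *Lrp1*, at 0.24 and 0.31, stayed under the limit. The genes past the limit had the direction they had in plaque fibromyocyte-like cells, where that of *Apoe* was set by the filter. *Abcg1* and *Pltp*, below the 10% of cells needed, had 0.59 and 1.25, and 1.17 and 1.07. With the pseudocount of 1 the counts were 2 and 2, without *Abca1* and *Vldlr*, against 1.92% of all genes higher and 1.2% lower and 1.61% and 1.41%.

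The Igfbp2/Postn cells stood closer to contractile cells. In control 1 of 5 genes was past the limit, against 9.69% of 7743 genes, and in Trf2T188A 3 of 6, against 13.7% of 8497. *Apoe* was higher in both, by 2.41 and 1.79 on the log2 scale. In Trf2T188A *Pltp*, which passed the filter only through the Igfbp2/Postn cells, was 1.26 (0.96 to 1.57) and *Vldlr* −0.58 (−0.66 to −0.50). *Abca1* was 0.34 (0.19 to 0.49) in control and −0.25 (−0.39 to −0.10) in Trf2T188A, so its place relative to contractile cells differed in direction between the libraries.

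Non-muscle cells of the ligated arteries were set against contractile cells in the same way. In endothelial-like cells every gene that could be compared was past the limit, 7 of 7 in control (57.7% of 9250 genes) and 8 of 8 in Trf2T188A (56.8% of 9837). Only 2 and 4 of these genes had UMIs in 10% of cells on both sides, so the direction of the other genes was set by the filter. *Apoe* was 6.51 and 6.31, *Abcg1* 2.42 and 2.09, *Scarb1* 2.31 and 1.75 and *Abca1* 2.07 and 1.70. *Lrp1* was −4.29 and −3.28, *Lpl* −3.69 and −2.67 and *Vldlr* −4.87 and −3.11. In myeloid-like cells of Trf2T188A all 9 genes were past the limit (67.8% of 9321 genes). *Vldlr*, *Scarb1*, *Cd36*, *Abcg1* and *Pltp* had UMIs in 10% of cells on 1 side only, so their direction was set by the filter. Of the other 4 genes 3 were higher and 1 lower, against 27.2% of all genes higher and 40.6% lower. All genes compared there had a median log2 ratio of −0.226. *Cd36* was at 6.70 (6.21 to 7.21), *Apoe* at 6.73, *Pltp* at 5.35 and *Abcg1* at 5.14. *Lrp1*, at −0.53, and *Vldlr*, at −3.77, were lower there. The 19 control myeloid-like cells were too few for such a count. In the endothelial-like cells the 11 myeloid markers summed to 9.0 and 4.70 per 10000, against 243 and 327 in myeloid-like cells, with 6 and 9 of the 11 at 0, and their part in the endothelial *Apoe* was not tested.

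The comparison of genotypes asked whether lipid handling differed in cells with the TRF2 mutant. *Terf2*, the gene of TRF2, had 0.183 and 0.183 per 10000 over all plaque cells and 0.179 and 0.168 over all ligated cells, and whether transcripts of the transgene are counted under it is not given in the sources used here. Genes were counted at a log2 ratio, Trf2T188A over control, of at least 0.25 in size. In plaque contractile cells none of 6 genes was past it, against 16.7% of 10166 genes, and the 6 ratios lay between −0.21 and 0.13. Other cell groupings added *Pltp* alone, and cells thinned to 1 depth *Abca1* alone. With 1 library a genotype, no p-value goes with this 0.

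In plaque fibromyocyte-like cells 4 of 8 genes were past the limit, against 38.1% of 11405 genes. All 4 were higher, against 14.9% of all genes higher and 23.2% lower, a split that median-of-ratios scaling moved to 17.9% and 19.5%. *Lpl* was 0.773 in ApoE-/- and 1.38 in Trf2T188A/ApoE-/-, a log2 ratio of 0.84 (0.66 to 1.02). *Abcg1* had a ratio of 0.65 (0.28 to 1.01), *Apoe* 0.55 (0.04 to 1.06) and *Pltp* 0.39 (0.07 to 0.71). *Lrp1*, at 0.25, was just under the limit, *Abca1* was 0.09 (−0.08 to 0.26) and *Vldlr* −0.09. With the pseudocount of 1 the count was 2, against 1.17% of all genes higher and 1.81% lower. With a coarser clustering (resolution 0.45) the *Lpl* ratio was 0.30. In C3/Lcn2 cells *Lpl* had the other sign, at −0.39 (−0.59 to −0.19), while *Abcg1* was 1.24 (0.53 to 1.98). In chondrocyte-like cells 7 of 8 genes were past the limit, against 53.3% of 11145 genes, with *Pltp* at −1.23 (−1.47 to −1.0), *Vldlr* at −1.29 (−1.78 to −0.83), *Abca1* at 0.55 (0.18 to 0.91) and *Lpl* at −0.37 (−0.83 to 0.08). The 152 *Pltp* UMIs of 1 cell lie in the ApoE-/- side of that ratio.

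In ligated contractile cells 1 of 5 genes was past the limit, against 12.9% of 8320 genes, and this was *Lpl* at −0.45 (−0.54 to −0.35), from 0.964 in control to 0.707 in Trf2T188A. In Igfbp2/Postn cells 2 of 6 were past it, against 21.0% of 8009 genes. *Abca1* was 0.463 in control and 0.266 in Trf2T188A, a ratio of −0.80 (−0.95 to −0.65), and *Apoe* 8.06 and 4.94, a ratio of −0.71 (−0.74 to −0.67). In Gdf10/Lum cells 3 of 5 were past it, against 21.1% of 8304 genes. *Apoe* was 0.43 (0.40 to 0.45), *Abca1* −0.30 (−0.45 to −0.16) and *Lpl* −0.28 (−0.35 to −0.21). The *Apoe* ratios of Igfbp2/Postn and Gdf10/Lum cells thus had opposite signs, and with a coarser clustering (resolution 0.1) the second was −0.0040. *Abca1* was below 0 in each of the 3 VSMC classes, with −0.21 (−0.37 to −0.06) in contractile cells.

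**Figure D4:**
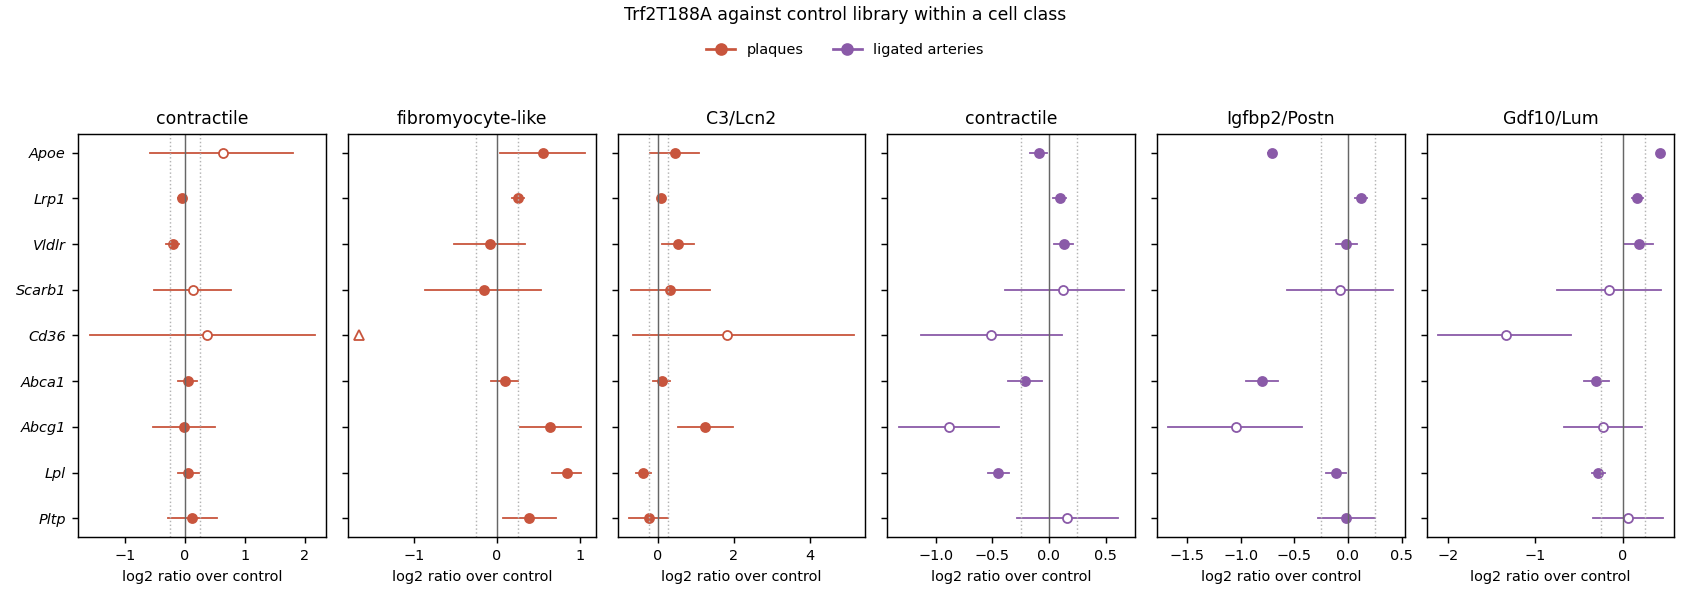
Log2 ratio of summed UMIs per 10000, Trf2T188A over control library (horizontal axis, a separate range in each panel), in 3 plaque classes (left) and 3 ligation classes (right). Bars are exact binomial 95% intervals, open circles are genes with a UMI in fewer than 10% of cells on both sides, the triangle is an upper bound for a class with no UMI, and dotted lines mark 0.25 in size. *Lpl* is at 0.84 in plaque fibromyocyte-like cells and at −0.45 and −0.28 in ligated contractile and Gdf10/Lum cells.

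Plaque and ligation were compared in contractile cells, though that class was named by other subtype markers in each experiment and, in ligated arteries, the Igfbp2/Postn cells held more contractile transcripts. The experiments also differed in tissue, diet, *ApoE* genotype, selection of reporter-positive cells, Cell Ranger version and cell filters, and these cannot be told apart. A list of 10 very long genes summed to 46.8 and 48.3 per 10000 in plaque and 10.2 and 9.20 in ligated contractile cells, and their part in the ratios was not tested. Without the transgene 4 of 7 genes were past 0.5 in size, 2 higher and 2 lower in plaque, against 29.7% of 9977 genes (21.0% higher and 8.7% lower). With the transgene 5 of 7 were past it, 3 higher and 2 lower, against 27.2% of 10080 (19.1% higher and 8.07% lower), a split that median-of-ratios scaling moved to 16.2% and 10.7%. *Apoe*, *Abcg1* and *Pltp* had UMIs in 10% of cells on 1 side only, so their direction was set by the filter. Of the other 4 genes 1 was higher and 1 lower in each comparison. The comparisons without and with the transgene share no library.

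*Apoe*, the targeted gene, was lower in plaque, with ratios of −7.34 (−8.15 to −6.63) and −6.61 (−7.56 to −5.80). *Lpl* was also lower, −1.01 (−1.14 to −0.89) and −0.51 (−0.66 to −0.35). *Pltp* was higher, 1.08 (0.64 to 1.52) and 1.04 (0.62 to 1.46), as was *Abca1*, 0.61 (0.46 to 0.76) and 0.87 (0.71 to 1.03). *Abcg1* was 0.07 (−0.36 to 0.50) without and 0.95 (0.41 to 1.47) with the transgene. Against Igfbp2/Postn cells in place of ligated contractile cells *Pltp* was −0.36 (−0.67 to −0.06) and −0.22 (−0.60 to 0.15), so its direction depended on the ligated class, while *Abca1* was 0.27 and 1.12, *Abcg1* 0.90 and 1.93 and *Lpl* −0.88 and −0.71. *Lrp1* (0.27 and 0.12) and *Vldlr* (0.20 and −0.14) differed little. With cells of both experiments thinned to 5000 UMIs the counts were 2 and 2, where *Abca1* had 0.43 and 1.17 and *Pltp*, in too few cells for the count, 0.68 and 1.10. With the pseudocount of 1 the counts were 1 and 1, with *Apoe* alone, against 2.8% of all genes higher and 1.31% lower and 2.14% and 0.992%.

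Plaque fibromyocyte-like and ligated Gdf10/Lum cells were set side by side, though different genes define them. All genes had a median log2 ratio of 0.23 and 0.14 there. *Vldlr* was −1.37 and −1.64, *Lpl* −2.01 and −0.89 and *Apoe* −7.59 and −7.47, while *Pltp* was 1.62 and 1.96, *Abcg1* 1.23 and 2.11 and *Lrp1* 0.81 and 0.89. Here *Pltp* and *Abcg1* had UMIs in 10% of cells on 1 side only, so their direction was set by the filter.

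**Figure D5:**
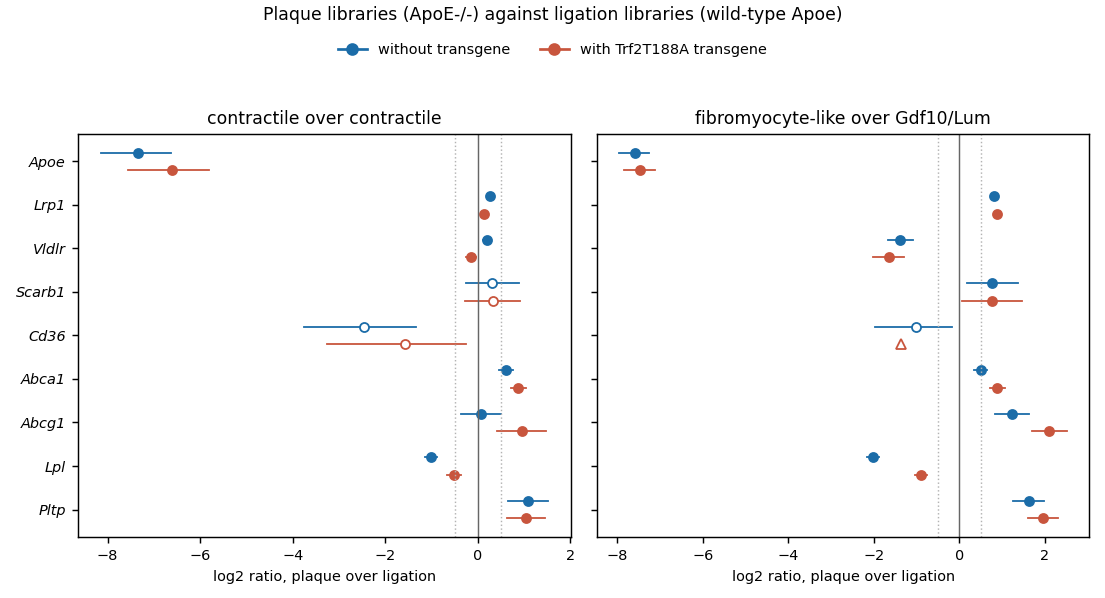
Log2 ratio of summed UMIs per 10000, plaque over ligation library (horizontal axis), for contractile cells (left) and for plaque fibromyocyte-like over ligated Gdf10/Lum cells (right), without and with the Trf2T188A transgene. Bars are exact binomial 95% intervals, open circles are genes with a UMI in fewer than 10% of cells on both sides, the triangle is an upper bound and dotted lines mark 0.5 in size. *Apoe* lies near −7 in both panels, *Lpl* left of 0 and *Pltp* right of 0.

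A list of 37 other genes of lipid handling gave the surroundings of these 9. In fibromyocyte-like cells 6 of 24 compared were higher and 5 lower in ApoE-/-, and 6 of 23 higher and 7 lower in Trf2T188A/ApoE-/-, shares near those of all genes given above. *Sorl1*, a sorting receptor, was 2.35 and 2.48 in contractile and 0.384 and 0.391 in fibromyocyte-like cells. *Npc2*, which carries cholesterol out of lysosomes, was 1.15 and 1.12 against 4.07 and 4.01, and *Fabp4*, a fatty acid carrier, 2.44 and 2.38 against 0.915 and 0.741. *Angptl4*, an inhibitor of lipoprotein lipase, was 0.00996 and 0.0206 against 0.302 and 0.418, in the class in which *Lpl* was also higher. *Nr1h3*, which encodes the liver X receptor alpha, was 0.0697 and 0.074 against 0.1 and 0.106, and *Nr1h2*, its beta form, 0.579 and 0.581 against 0.345 and 0.368. *Olr1*, the oxidised lipoprotein receptor LOX-1, had no UMI in ApoE-/- contractile cells and 0.0893 in fibromyocyte-like cells.

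The C3/Lcn2 cells had 9 of 24 and 9 of 25 of the list higher and 4 and 4 lower, against 23.6% and 24.5% of all genes higher and 16.6% and 17.9% lower. *Mylip*, a ligase that degrades lipoprotein receptors such as the VLDL receptor, was 0.989 and 1.02 there against 0.467 and 0.466 in contractile cells. In Gdf10/Lum cells 4 of 20 were higher and 2 lower in control and 7 of 21 higher and 3 lower in Trf2T188A, against 10.5% and 10.9% of all genes higher and 11.1% and 12.4% lower. *Sorl1* was again lower, 0.615 and 0.57 against 1.43 and 1.66, and *Mylip* higher, 1.28 and 1.29 against 0.839 and 0.704. In chondrocyte-like cells 16 of 23 and 13 of 22 were past the limit, shares near the 61.8% and 60.5% of all genes, among them *Nr1h2*, at 0.137 and 0.17 against 0.579 and 0.581 in contractile cells. Endothelial-like cells, with 16 of 23 and 18 of 25 past the limit against 57.7% and 56.8% of all genes, held *Stab1*, a scavenger receptor, at 1.56 and 1.43. *Gpihbp1*, the anchor of lipoprotein lipase on capillary endothelium, was at 0.561 and 0.0185 there. Its second value lay below the level that 3 UMIs would have in that class. Between plaque and ligated contractile cells 1 of 22 was higher and 5 lower in both comparisons, against 21.0% and 19.1% of all genes higher and 8.7% and 8.07% lower, with *Sorl1* the higher one and *Fabp4*, *Lrp8* and *Mylip* lower in both.

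For each of the 9 genes the genes with the most similar levels over classes and libraries were found by the mean of the Pearson correlations, over 16 class levels in plaque and 12 in ligation, among 10458 genes. The points share libraries and depth, so the values are descriptions. *Vldlr* was nearest to *Dact3* (0.94) and to *Lims2* (0.92), an integrin-linked adaptor. *Pltp* was nearest to *Metrnl* (0.92) and *Hpgd* (0.92), and *Apoe* to *Ptk2b* (0.91) and to *Tgfbi* (0.90), a matrix protein. *Abca1* was nearest to *Nfe2l2* (0.91) and *Baz1a* (0.90), *Lrp1* to *Dse* (0.90) and *Mast2* (0.87), and *Abcg1* to *Cd44* (0.87) and *Rap2b* (0.84). *Cd36* with *Lactb* (0.83), *Scarb1* with *Mndal* (0.81) and *Lpl* with *Pik3r1* (0.79) were less close.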

How the data were processed

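Single-cell libraries (10x Chromium 3′ v3) were deposited by the authors as a signal per gene and cell, each being UMIs per 10000 UMIs of that cell, on a linear scale, after their own cell filters, which differed between plaque and ligation. According to the submitters' processing notes Cell Ranger 7.0.0, Seurat 4.3.0 and R 4.2.2 were used for plaque and Cell Ranger 6.1.2, Seurat 3.2.1 and R 3.6.2 for ligation, with GRCm38. Plaque cells were those the authors kept as reporter-positive clusters. Whole UMIs were recovered from the steps of the values. The 4 libraries held 37869934 (ApoE-/-), 24064570 (Trf2T188A/ApoE-/-), 47713453 (control) and 67426588 (Trf2T188A) UMIs.

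Cells were clustered with Seurat 5.3.0 in R 4.3.3 on 2000 variable genes, from which the 9 genes, 37 other genes of lipid handling and *Terf2* were left out (47 in all), with 18 components and resolution 0.9 for plaque and 17 and 0.2 for ligation. Naming a class took 3 or more fixed markers averaging 0.5 or more on the log2 scale over other cells. The members, marker lists and the list of 37 were chosen with earlier results of these data known. Levels are summed UMIs per 10000 with exact Poisson intervals, ratios have exact conditional binomial intervals, shares have Clopper-Pearson intervals, and a class with no UMI was bounded by 3 UMIs. Named genes were the 9 members in every comparison, *Terf2*, the list of 37, from which examples were picked after their values were seen, and for each member the genes nearest by mean correlation of log2 levels with 0.1 added. Scrublet in scanpy 1.11.5 marked 0.3229% of cells or fewer in every library, too few to have worked, so no doublets were removed in the reported values. Cells under the thinned depth were left out (92 and 122 below 8000 UMIs in plaque, 325 and 154 below 5000 in ligation). Python 3.11.15, numpy 2.4.6, scipy 1.17.1 and pandas 2.3.3 were used. Scripts were tested on simulated data.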

Additional observations from a re-analysis of the deposited data

Results flagged for a closer look

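The *Lpl* ratio of the Trf2T188A over the control library was 0.84 on the log2 scale in plaque fibromyocyte-like cells (0.66 to 1.02) and −0.28 in ligated Gdf10/Lum cells (−0.35 to −0.21), opposite directions in these classes. Among the other plaque classes the C3/Lcn2 cells, at −0.39 (−0.59 to −0.19), and chondrocyte-like cells, at −0.37 (−0.83 to 0.08), went the way of the ligated Gdf10/Lum cells. Itih4/Wnt16 cells went the way of the fibromyocyte-like cells. They held 243 *Lpl* UMIs among 4961962 in ApoE-/- and 310 among 4398371 in Trf2T188A/ApoE-/-. The ligated classes did not share 1 direction. Contractile and Igfbp2/Postn cells were lower in Trf2T188A, while interferon-responding, endothelial-like and myeloid-like cells were higher, on fewer UMIs. The interferon-responding cells held 99 *Lpl* UMIs among 1079607 in control and 82 among 732069 in Trf2T188A. The difference between the classes was not tested, with 1 library in each group. With a coarser clustering (resolution 0.45) the plaque fibromyocyte-like value was 0.30.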

How the results depend on the processing

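With 1 library a group, the spread between mice is unknown, and no replicate could be left out. No paired analysis was possible because each group had 1 library. Of 133 counts of genes past the limit recomputed under other settings 103 stayed within 1.5 times, 30 moved, and of 592 log2 ratios 482 stayed within their interval, 108 left it and 2 changed sign.

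With a pseudocount of 1 added to the mean over cells, the counts were 3 and 4 in fibromyocyte-like cells (8 and 8 as reported), 3 and 2 in C3/Lcn2 (8 and 8), 3 and 3 in chondrocyte-like (7 and 6), 2 and 2 in Gdf10/Lum (4 and 4) and 1 in Trf2T188A Igfbp2/Postn cells (3). By genotype they were 2 in plaque fibromyocyte-like (4), 0 in ligated contractile (1), 1 in Igfbp2/Postn (2) and 1 in Gdf10/Lum cells (3), and between plaque and ligation 1 and 1 (4 and 5). That setting shrinks sparse genes by its construction. Thinning gave 5 in ApoE-/- C3/Lcn2 cells, 1 and 2 by genotype in plaque and ligated contractile cells (0 and 1), and 2 and 2 between plaque and ligation, where fewer genes could be compared. It turned *Abca1* in ApoE-/- chondrocyte-like cells from −0.58 to 0.0035. A coarser clustering (resolution 0.45 for plaque and 0.1 for ligation) turned *Apoe* by genotype in Gdf10/Lum cells from 0.43 to −0.0040 and gave 1 for the plaque contractile genotype count, as did 1.5 times the reported resolution and the 9 genes among the variable genes (*Pltp* each time), and the cause was not tested. These last 2 settings also gave 3 and 3 for plaque against ligation with the transgene (5), without *Abcg1* and *Lpl*. Without the filter on the share of cells the counts were 2 for the plaque contractile genotype (*Apoe* and *Cd36*), 4 and 5 in Igfbp2/Postn (1 and 3), 8 in control Gdf10/Lum cells (4) and 3 for the ligated contractile genotype (1). The coarser clustering formed no such class for 9 of the values (C3/Lcn2, Igfbp2/Postn and Gdf10/Lum states, the ligated contractile genotype and plaque against ligation). Median-of-ratios scaling, reporter-positive cells alone, removal of the highest 5% of doublet scores and totals without mitochondrial and ribosomal genes moved no count by more than 1.5 times. Median-of-ratios scaling changed the split of all genes past the limit in chondrocyte-like cells from 21.3% higher and 40.5% lower to 27.9% and 29.3% in ApoE-/- and from 20.0% and 40.4% to 26.7% and 29.5% in Trf2T188A/ApoE-/-. It also moved that split in control Igfbp2/Postn cells from 3.82% and 5.86% to 4.83% and 4.65%, in Trf2T188A ones from 5.11% and 8.57% to 6.31% and 6.44%, and by genotype from 7.27% and 5.65% to 9.29% and 4.12% in ligated contractile and from 9.36% and 11.6% to 11.5% and 8.85% in Igfbp2/Postn cells.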
